A study of Mus musculus with 4 samples.

Results

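Hypoxia-inducible factors (HIFs) are transcription factors made of an oxygen-controlled alpha subunit and a stable partner, ARNT. In oxygenated cells, prolyl hydroxylases of the EGLN (PHD) family use oxygen, iron and 2-oxoglutarate to modify the alpha subunit, and the VHL protein then recruits a ubiquitin ligase that marks it for destruction. A separate asparaginyl hydroxylase, encoded by Hif1an and known as FIH, blocks the binding of transcriptional coactivators. In T cells, receptor stimulation and low oxygen both raise HIF-1 activity, which is known for inducing glycolysis genes. The 8 genes described here are the alpha subunit genes Epas1 (HIF-2 alpha) and Hif1a (HIF-1 alpha), Arnt, the prolyl hydroxylase genes Egln1, Egln2 and Egln3, Vhl and Hif1an. They were selected by symbol from a table of 16718 genes, with their values in these same samples already known, so their levels and calls are a description and not a test.

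RNA-seq (BGISEQ-500) was made from mouse naive CD4+ T cells after 4 hours of T cell receptor stimulation by anti-CD3, in both genotypes. By their labels, 2 libraries came from cells with a conditional knockout of the zinc finger factor Zfp281 (cKO) and 2 from wild-type cells (WT). No source used here gives the driver of the deletion, the strain or the age of the mice. Each gene has a single value per genotype, in FPKM (fragments per kilobase of gene, scaled to sequencing depth). Variation among libraries of the same genotype therefore cannot be measured, and the differences described have no replicate behind them.

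By estimate, 17204316 reads in cKO and 17360722 reads in WT stood behind the values. Zfp281 itself had 0.44 FPKM in cKO, against 66.3 FPKM in WT. The CD4 T cell markers were abundant in both genotypes, with Cd3e at 314 FPKM in cKO and 339 FPKM in WT, and Cd4 at 239.8 FPKM in cKO and 249.9 FPKM in WT. Of 17 such markers, all above 1 FPKM, 10 (58.8%) were called lower and 4 (23.5%) higher, against 16.9% and 19.9% of all genes. Among them were Thy1, with 75.5 FPKM in cKO and 148.7 FPKM in WT, and Ccr7, with 345 FPKM in cKO and 210 FPKM in WT. "Higher" and "lower" calls below use the false discovery rate (FDR) in the authors' deposited table, below 0.05, among the 10728 genes that reached 1 FPKM in cKO, WT or both. That FDR compares 2 sets of reads and allows for no variation between animals or cultures. Ratios are cKO over WT, and their 95% intervals (exact, Clopper-Pearson) come from read numbers and cover counting error only.

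The sequences shown carry letters of known regulatory elements: the loop of the iron-responsive element in the 5′ untranslated region of Epas1, a match to the GC-rich motif bound by Zfp281, and matches to the core of the hypoxia response element bound by HIFs. Capitals mark the loop or the match. All are in GRCm38, 5′ to 3′ on the strand of the gene; the first is from GENCODE M21 and the others are from RefSeq.
Epas1 iron-responsive element, chr17:86753768-86753797, plus strand: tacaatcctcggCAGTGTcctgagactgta
Arnt, Zfp281 motif, chr3:95434371-95434400, plus strand: tgcccaggatGGGGAGGGGggtgggcgtcc
Hif1a, hypoxia response element core, chr12:73907721-73907750, plus strand: acacagacaagcACGTGagcggggcagctc
Egln1, hypoxia response element core, chr8:124949305-124949334, minus strand: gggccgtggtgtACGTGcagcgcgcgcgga
Egln3, hypoxia response element core, chr12:54204086-54204115, minus strand: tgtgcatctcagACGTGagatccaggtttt

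Iron-responsive elements are hairpins bound by the iron regulatory proteins, and the one in Epas1 is known to restrain translation when iron is scarce. The 6 letters of its loop, CAGTGT, searched on the sense strand, lay at bases 81 to 86 of GENCODE transcript Epas1-201, which begins upstream of the RefSeq gene start. Among 28551 protein-coding transcripts with an untranslated leader of at least 100 bases, 2.63% held the 6 letters in their first 100 bases. The leader of Hif1a held the same 6 letters at bases 157 to 162, beyond the first 100 bases. Whether they form an element there was not tested, and the letters alone do not show one. Promoter windows of 300 bases (250 before to 50 after the start site) were found in RefSeq for 7 of the 8 genes (8 windows, with 2 for Egln2), without Epas1. The Zfp281 motif GGGGAGGGG, searched on both strands, was in the window of Arnt, 9 to 1 bases before the start site on which that window is placed, and in 6.37% of all 32851 windows. The hypoxia response element core was searched as ACGTG or GCGTG on either strand. It was in the windows of 5 of the 7 genes (Arnt, Hif1a, Egln1, Egln2 and Egln3). Of all genes with a window 46.7% held it, as did 43.8% of all windows. A palindromic CACGTG counts on both strands. The start sites of the Arnt and Hif1a windows lie downstream of the gene starts given below, so the matches shown for both fall within the annotated gene spans. These matches are letters in a window and not measured binding.

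Epas1 was the single gene of the 8 with a large difference. It had 20.6 FPKM in cKO, against 7.67 FPKM in WT, or 1914 reads in cKO and 718 reads in WT. Its level in cKO was 2.69 times that in WT (95% interval 2.47 to 2.93), a log2 ratio of 1.43. The authors' deposited table gives it an FDR of 2.05e-124 and marks it as up. By log2 ratio it stood at percentile 99.1 of the 10728 genes, with 97 of them above it. It ranked 26 among the 63 genes at 1 FPKM or more that the authors marked up, and 8 among the 24 of these that reached 5 FPKM. Its level moved to percentile 62.0 of these genes in cKO, against percentile 34.1 in WT.

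Hif1a, the other alpha subunit, was the most abundant of the 8 genes and did not differ by the same rule. Hif1a (NCBI gene 15251, chr12:73901324-73947554) had 90.7 FPKM in cKO and 90.4 FPKM in WT, a ratio of 1.004 (0.972 to 1.04), with an FDR of 0.861 in the authors' deposited table. The interval leaves room for a change of a few percent in either direction. Its level lay at percentile 93.6 of expressed genes in cKO and 93.3 in WT. Arnt (11863, chr3:95434367-95497240), the shared partner, had 19.4 FPKM in cKO and 18.4 FPKM in WT, a ratio of 1.06 (0.980 to 1.14), and was not called (FDR 0.305 in the authors' deposited table). Arnt is the gene whose window held the Zfp281 motif. A long noncoding gene overlaps each of Hif1a and Egln1 in RefSeq (Gm15283 and Gm46060), and how reads were shared between them is not known.

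The alpha subunits stood in another proportion to each other in cKO than in WT. Per length, Epas1 RNA amounted to 22.7% of the Hif1a level in cKO, against 8.49% in WT. Of the 2 alpha subunit levels together (111.3 FPKM in cKO, 98.1 FPKM in WT), Epas1 made up 18.5% in cKO and 7.82% in WT. Epas1 stood at 1.06 times the Arnt level in cKO and at 0.417 times the Arnt level in WT. Hif1a remained at 4.68 times the Arnt level in cKO and 4.92 times in WT. These are RNA levels; HIF alpha protein is controlled mainly after translation and was not measured.

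**Figure D1:**
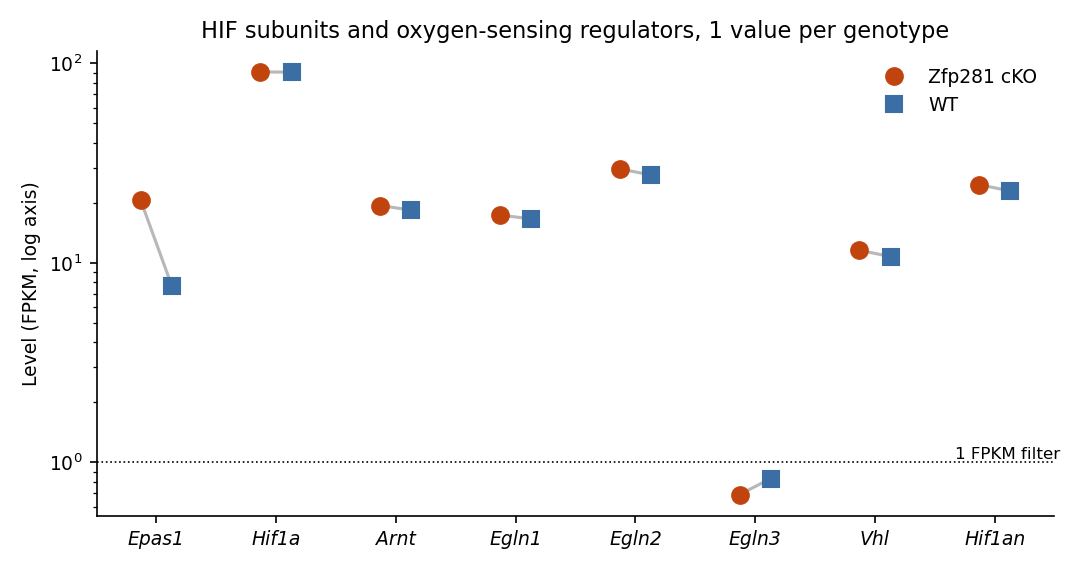
Level of each of the 8 genes in FPKM on a log axis, 1 value per genotype, with Zfp281 cKO as circles and WT as squares; grey lines join the values of a gene and the dotted line marks the filter of 1 FPKM. Epas1 stands at 20.6 FPKM in cKO and 7.67 FPKM in WT, while the symbols of the other genes lie close together and Egln3 lies below the filter in both genotypes.

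The prolyl hydroxylases did not differ by the rule. Egln2 (PHD1; 112406, chr7:27158658-27166802) was the most abundant, with 29.6 FPKM in cKO and 27.6 FPKM in WT, a ratio of 1.07 (0.984 to 1.17; FDR 0.282 in the authors' deposited table). Egln1 (PHD2; 112405, chr8:124908587-124949254), the main oxygen sensor for HIF-1 alpha in most cells, had 17.4 FPKM in cKO and 16.6 FPKM in WT, a ratio of 1.05 (0.958 to 1.14; FDR 0.558 in the authors' deposited table). Egln3 (PHD3; 112407, chr12:54178981-54203874), which HIFs strongly induce in many cell types, was barely detected, with 32 reads in cKO and 39 reads in WT. Its levels, 0.69 FPKM in cKO and 0.83 FPKM in WT, lie under the filter, and its ratio of 0.831 has an interval from 0.502 to 1.36 (FDR 0.690 in the authors' deposited table). That interval is wide and leaves room for a change in either direction. Egln2 made up 62.1% of the 3 Egln levels in cKO and 61.3% in WT, Egln1 36.4% in cKO and 36.9% in WT, and Egln3 1.45% in cKO and 1.84% in WT. The order Egln2, Egln1, Egln3 was the same in both genotypes.

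Vhl and Hif1an both lay slightly above WT. Vhl (22346, chr6:113623994-113631634), the substrate receptor of the ubiquitin ligase, had 11.6 FPKM in cKO and 10.8 FPKM in WT, a ratio of 1.08 (0.952 to 1.22), and was not called (FDR 0.477 in the authors' deposited table). Hif1an (319594, chr19:44562854-44576274) had 24.7 FPKM in cKO and 22.9 FPKM in WT, or 2656 reads in cKO and 2489 in WT. Its ratio was also 1.08 (1.02 to 1.14), and it was called higher, with an FDR of 0.0350 in the authors' deposited table. That call depends on the scaling: with the median change of all expressed genes set to 0, a recomputed read test gave an adjusted p of 0.0922. Hif1an and Vhl had nearly the same ratio, and Hif1an had more reads.

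In all, 7 of the 8 genes passed the filter, and 2 of these were called higher, 0 lower and 5 in neither direction. Over all 10728 genes, 19.9% were called higher and 16.9% lower. All 7 lay above WT, as did 53.1% of all genes, whose median log2 ratio was 0.02. The 6 genes other than Epas1 above the filter had log2 ratios between 0.01 (Hif1a) and 0.11 (Hif1an), and with the median set to 0 Hif1a lay at -0.01. The median absolute log2 ratio of all expressed genes was 0.16. If the reads of each genotype are assumed to vary by a coefficient of variation (CV) of 10%, Epas1 keeps its call (adjusted p 4.15e-08) and Hif1an loses it. With 20% in place of 10%, none of the 8 is called, and the adjusted p of Epas1 is 0.288. Among all genes, that assumption leaves 0.103% higher and 0.0652% lower, against 0.83% higher and 0.736% lower at 10%. Of all genes, 3.03% were higher and 1.97% lower by at least 1.5-fold, and the authors marked 0.587% up and 0.559% down. With the median set to 0, 17.8% were higher and 18.7% lower. At 5 FPKM or more the shares were 22.6% and 20.2%, and without a filter 13.4% and 11.3%.

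**Figure D2:**
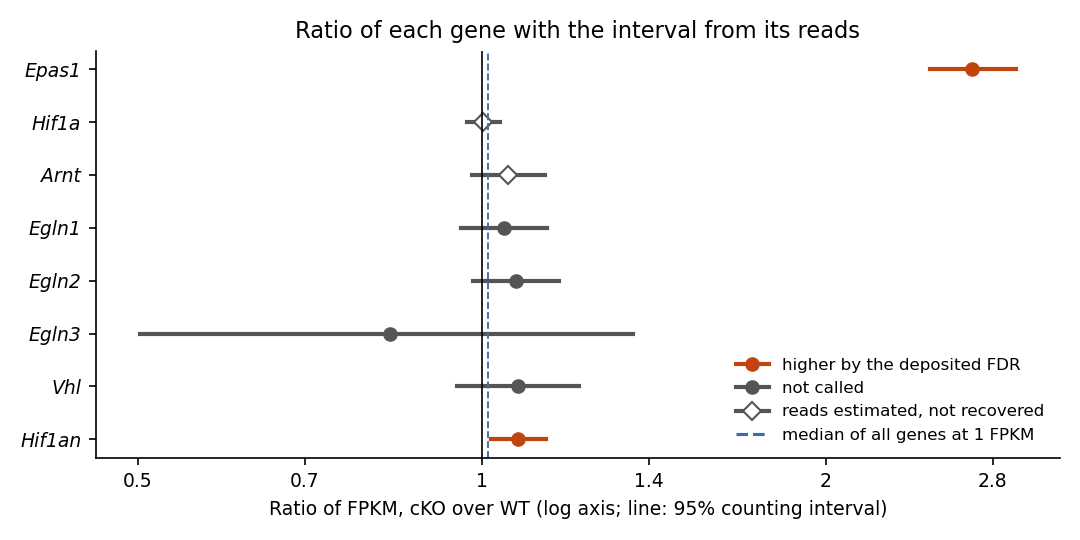
Ratio of FPKM in cKO over WT for each of the 8 genes on a log axis, with the 95% counting interval from its reads; orange genes were called higher, and open diamonds mark genes whose reads were estimated. The interval of Epas1, 2.47 to 2.93, lies apart from all others, and that of Hif1an, 1.02 to 1.14, is the only other one that does not include 1.

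**Figure D3:**
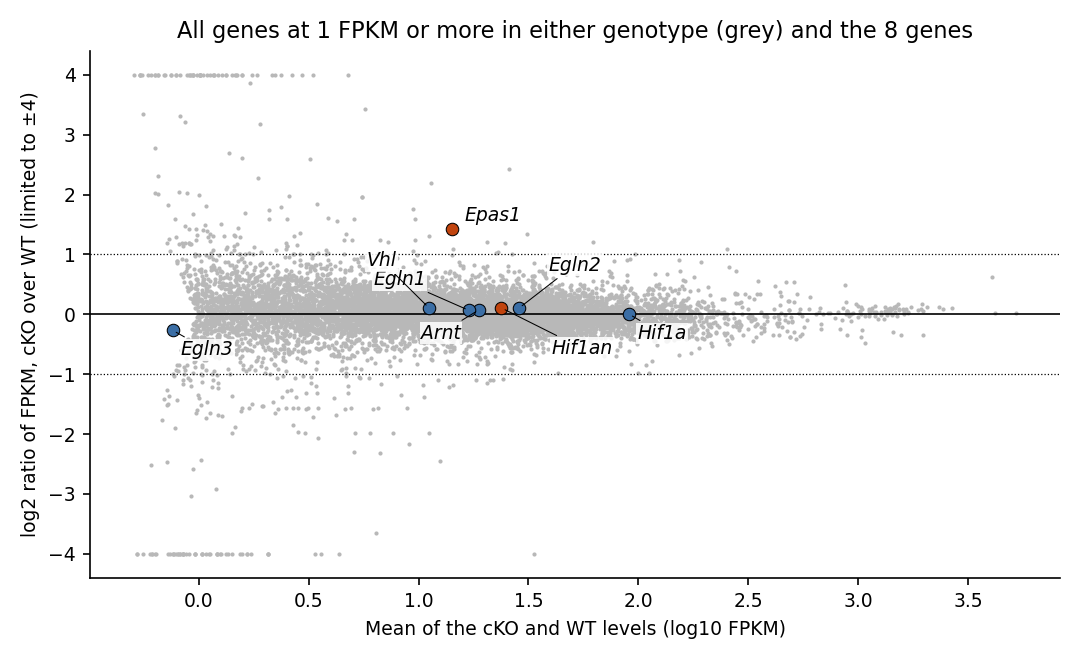
Mean level (log10 FPKM) against the log2 ratio of cKO over WT for the 10728 genes at 1 FPKM or more (grey) and the 8 genes (orange where called higher, blue otherwise; Egln3 is under the filter). Ratios beyond 4 in size are drawn at the border, and dotted lines mark a 2-fold difference; Epas1 lies above the upper line at 1.43 and the others near 0.

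Genes next to Epas1 on chromosome 17 did not share its difference in size. Epas1 (NCBI gene 13819) spans chr17:86753864-86833410 in GRCm38. Of the 8 other genes with a value within 500 kb, 7 passed the filter. Of these 7, 2 were called higher and 0 lower, against 19.9% and 16.9% of all genes. Cript had 25.6 FPKM in cKO and 21.3 FPKM in WT, a ratio of 1.20 (1.05 to 1.37). Ttc7 had 18.1 FPKM in cKO and 15.6 FPKM in WT, a ratio of 1.16 (1.08 to 1.26). The nearest genes with a value on either side, Prkce and Rhoq, were not called: Prkce had 4.77 FPKM in cKO and 4.10 FPKM in WT, and Rhoq had 1.24 FPKM in cKO and 0.92 FPKM in WT. The ratios of the 7 ran from 0.930 to 1.35, all below that of Epas1. These neighbours were chosen by position.

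Epas1 is also known as a gene of endothelial cells and macrophages, and in bulk RNA a change in the number of cells of a type and a change in RNA per cell cannot be told apart. Of 18 endothelial markers 11 had a value, and apart from Pecam1, which T cells also express, they summed to 0.80 FPKM in cKO and 1.28 FPKM in WT. Kdr, Nos3 and Robo4 stood at the lowest value of the table, 0.01 FPKM, in both genotypes, and Cdh5 had 0.06 FPKM in cKO and 0.01 FPKM in WT. Flt1, which the authors marked down, had 0.13 FPKM in cKO and 0.43 FPKM in WT. Plvap had 0.34 FPKM in cKO and 0.48 FPKM in WT. Pecam1 had 47.4 FPKM in cKO and 43.8 FPKM in WT and was called higher, and the others lay under the filter. Of 18 monocyte, macrophage and dendritic cell markers 15 had a value, with a sum of 8.47 FPKM in cKO and 7.59 FPKM in WT. Of these, 3 passed the filter and 1 was called higher: Lyz2, with 1.09 FPKM in cKO and 0.22 FPKM in WT. Of 10 stromal markers 3 had a value, with a sum of 0.10 FPKM in cKO and 0.17 FPKM in WT.

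Summed marker levels of other lymphocytes were higher in cKO, with a few genes making up much of each sum. Over all genes, 19.9% were called higher and 16.9% lower. The 12 B cell markers with a value summed to 23.5 FPKM in cKO and 14.2 FPKM in WT. Of the 4 above the filter 2 were called higher, Cd74 and H2-Aa. Cd74 had 11.9 FPKM in cKO and 7.63 FPKM in WT, and H2-Aa had 3.88 FPKM in cKO and 1.57 FPKM in WT. Pax5, a B cell lineage factor gene, had 0.34 FPKM in cKO and stood at the lowest value, 0.01 FPKM, in WT. The 10 CD8 T cell and NK cell markers with a value summed to 36.1 FPKM in cKO and 27.4 FPKM in WT, with 3 of 4 called higher and 1 lower. Cd8b1, called higher, had 17.82 FPKM in cKO and 11.48 FPKM in WT. Cd8a lay under the filter, with 0.47 FPKM in cKO and 0.28 FPKM in WT. Prf1, called lower, had 8.42 FPKM in cKO and 10.45 FPKM in WT. The 12 regulatory T cell markers summed to 318 FPKM in cKO and 279 FPKM in WT. Of the 11 above the filter, 5 were called higher and 2 lower. Among the 5 were Tnfrsf18, with 106.84 FPKM in cKO and 79.06 FPKM in WT, and Ctla4, with 28.5 FPKM in cKO and 12.32 FPKM in WT. The 2 were Il2ra, with 25.49 FPKM in cKO and 32.48 FPKM in WT, and Gpr83, with 13.3 FPKM in cKO and 16.45 FPKM in WT. Foxp3, the lineage factor of these cells, had 1.26 FPKM in cKO and 0.55 FPKM in WT. The part of myeloid cells and of these lymphocytes in the difference of Epas1 was not tested.

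The closest paralogs were scarce, and calls among relatives and cofactors went both ways. Hif3a, which encodes a further alpha subunit, had 0.05 FPKM in cKO and 0.15 FPKM in WT, or 5 reads in cKO and 17 in WT. Arnt2, a paralog of Arnt, had 0.05 FPKM in cKO and 0.02 FPKM in WT, and both genes lay under the filter. Of 25 bHLH-PAS relatives and HIF cofactors with a value, 14 passed the filter, and their median log2 ratio was 0.02. Of these 14, 4 (28.6%) were called higher and 5 (35.7%) lower, against 19.9% and 16.9% of all genes. The circadian repressor gene Per2 fell to 0.591 of its WT level (0.534 to 0.653), with 6.14 FPKM in cKO and 10.4 FPKM in WT. Npas4, a bHLH-PAS gene, fell to 0.383 of WT (0.289 to 0.501), with 1.32 FPKM in cKO and 3.45 FPKM in WT, and was marked down by the authors. At an assumed CV of 10%, Per2 and Npas4 were the 2 genes of these 14 to pass. The clock activator gene Arntl (BMAL1) rose 1.22-fold (1.07 to 1.39) and the coactivator gene Ncoa1 rose 1.26-fold (1.17 to 1.37). The ATPase gene Ruvbl2 fell to 0.844 of WT (0.776 to 0.918). Ep300 and Crebbp, whose products are the coactivators that FIH keeps from HIF alpha, had ratios near 1: Ep300 32.6 FPKM in cKO and 32.1 FPKM in WT, not called, and Crebbp 29.5 FPKM in cKO and 27.6 FPKM in WT, called higher. Npas4, Ep300 and Crebbp were singled out after their values were seen.

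The genes that govern HIF alpha turnover had calls in both directions. Of 24 genes of the VHL ligase and of HIF turnover, 23 passed the filter, 6 were called higher and 3 lower, with a median log2 ratio of 0.03. With the median of all genes set to 0, 3 were higher and 3 lower, against 17.8% and 18.7% of all genes. The chaperone genes Hsp90aa1 and Hsp90ab1, whose products bind HIF alpha, fell to 0.755 (0.734 to 0.777) and 0.788 (0.777 to 0.799) of WT. Cul2, the scaffold of the VHL ligase, fell to 0.835 of WT (0.753 to 0.924), with 9.54 FPKM in cKO and 11.4 FPKM in WT. Siah1a, one of the ubiquitin ligase genes of the SIAH family, which target PHD proteins, rose 1.20-fold (1.08 to 1.35). Of 19 other 2-oxoglutarate-dependent hydroxylase genes with a value, 14 passed the filter, with a median log2 ratio of -0.08. Of these 14, 1 (7.14%) was called higher and 3 (21.4%) lower, against 19.9% and 16.9% of all genes. Mina, a ribosomal oxygenase gene, fell to 0.853 of WT (0.784 to 0.930), and Jmjd6 fell to 0.891 (0.813 to 0.976). The largest calls of that list, named after their values were seen, were below 5 FPKM. The collagen lysyl hydroxylase gene Plod1 was the one called higher, with 4.67 FPKM in cKO and 3.12 FPKM in WT, and Kdm8 fell to 0.638 of WT (0.468 to 0.863), with 1.71 FPKM in cKO and 2.68 FPKM in WT. None of these genes would have passed at an assumed CV of 10%.

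Calls among genes of HIF synthesis and of iron handling included ferritin genes, the transferrin receptor gene and signalling genes. Of 19 genes, 18 passed the filter, with a median log2 ratio of 0.01. Of these 18, 5 (27.8%) were called higher and 2 (11.1%) lower, against 19.9% and 16.9% of all genes. Fth1, the ferritin heavy chain gene, had 555 FPKM in cKO and 381 FPKM in WT and rose 1.46-fold (1.408 to 1.504). Ftl1, the ferritin light chain gene, rose 1.16-fold (1.12 to 1.19), and Stat3, a signalling transcription factor gene, rose 1.14-fold (1.10 to 1.17). Tfrc, the transferrin receptor gene, fell to 0.713 of WT (0.684 to 0.744). The other 3 calls were Rela and Tsc1, which rose 1.11-fold each, and Rheb, which fell to 0.9004 of WT. Slc11a2, another iron uptake gene, had 10.18 FPKM in cKO and 10.02 FPKM in WT and was not called. Aco1 and Ireb2, which encode the iron regulatory proteins that bind the element shown for Epas1, were not called, with Aco1 at 8.92 FPKM in cKO and 9.65 FPKM in WT and Ireb2 at 23.1 FPKM in cKO and 23.0 FPKM in WT. Mtor had 13.05 FPKM in cKO and 13.06 FPKM in WT and was not called. Rela, Tsc1, Rheb, Slc11a2, Aco1, Ireb2 and Mtor were singled out after their values were seen, and at an assumed CV of 10% none of the 18 passed.

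Known HIF target genes did not move one way with Epas1. Neither target list separates genes of HIF-1 from those of HIF-2. Of 22 targets of glucose uptake, glycolysis and lactate export, 21 passed the filter, and 11 of these (52.4%) were called lower and 4 (19.0%) higher, against 16.9% and 19.9% of all genes. Their median log2 ratio was -0.16, against 0.02 for all genes. The lactate exporter gene Slc16a3 fell to 0.223 of WT (0.184 to 0.268) and the glucose transporter gene Slc2a3 to 0.337 (0.295 to 0.384). Ldha, the lactate dehydrogenase gene, fell to 0.784 of WT (0.764 to 0.805) and Pgam1, a glycolytic mutase gene, to 0.799 (0.757 to 0.843). The 4 that rose, named after their values were seen, were Eno1, Gpi1, Pfkl and Pdk1, the last encoding a kinase that inhibits pyruvate dehydrogenase. At an assumed CV of 10%, Slc16a3 and Slc2a3 were the 2 genes of these 21 to pass.

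Among the other HIF targets more genes rose than fell. Of 36 with a value, 23 passed the filter, with a median log2 ratio of 0.10, against 0.02 for all genes. Of these 23, 9 (39.1%) were called higher and 5 (21.7%) lower, against 19.9% and 16.9% of all genes. Cxcr4, a chemokine receptor gene induced by HIFs, had 34.6 FPKM in cKO and 15.1 FPKM in WT and rose 2.29-fold (2.06 to 2.56). The annexin gene Anxa2 rose 1.68-fold (1.24 to 2.30), the cyclin gene Ccng2 1.55-fold (1.44 to 1.68) and the mitophagy receptor gene Bnip3l 1.25-fold (1.17 to 1.34). The 5 that fell, named after their values were seen, were Angptl4, Car12, Mif, Ndrg1 and Rbpj. Angptl4, which encodes an inhibitor of lipoprotein lipase, had 1.55 FPKM in cKO and 3.71 FPKM in WT. At an assumed CV of 10%, Cxcr4 would have been higher and Angptl4 lower, and the others would have missed the threshold. Both target lists were chosen with earlier results of these data known.

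**Figure D4:**
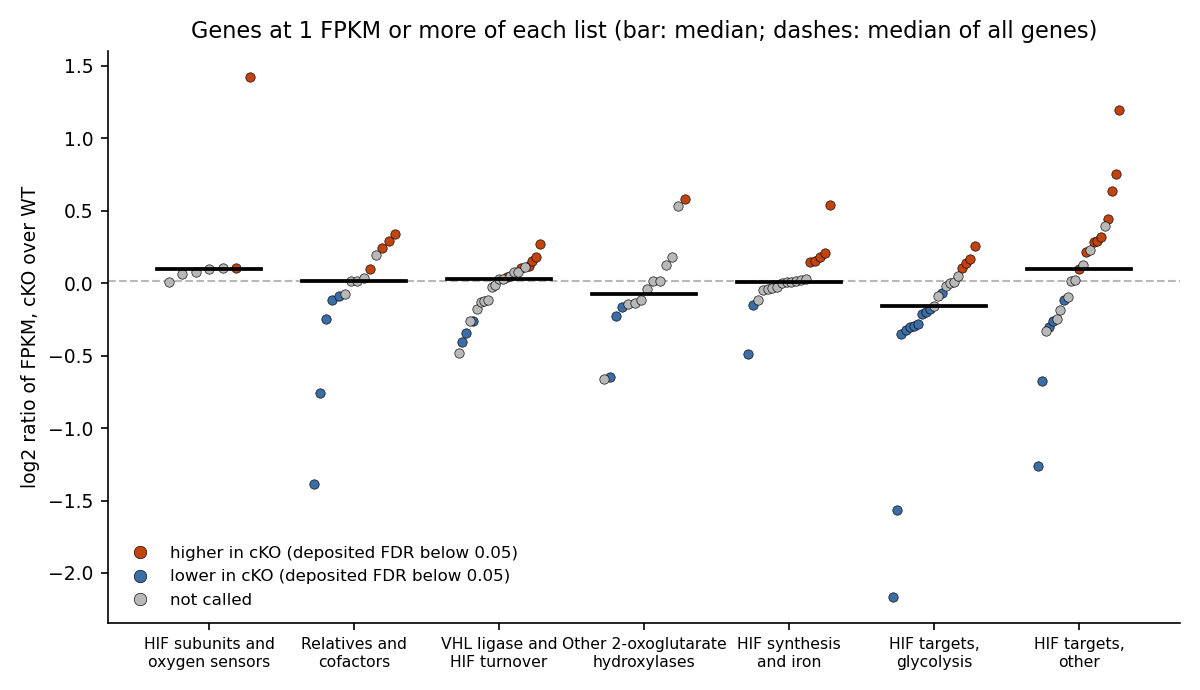
log2 ratio of cKO over WT of each gene at 1 FPKM or more in the 8-gene set and in 6 lists of related genes, coloured by call; bars are list medians and the dashed line is the median of all genes, 0.02. Epas1 is the top point of its set at 1.43, the glycolysis targets have the lowest median at -0.16, and the other targets have a median of 0.10 with Cxcr4 highest at 1.20.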

How the data were processed

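The RNA-seq libraries (2 cKO, 2 WT) were made on a BGISEQ-500, per the labels' protocols. Bowtie2 2.2.5 and the build mm10 are named in the submitters' processing notes; no source used here names the quantification tool or annotation. The authors deposited FPKM values in 1 column per genotype, without stating how libraries were combined. Their deposited log2 fold change is that of the FPKM values, cKO over WT. The p-value is the authors' own, as deposited, and the deposited FDR is handled as a score because it reaches 1.03.

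Read numbers were recovered as the whole-read pair that fits both FPKM values and the deposited p-value. That p-value was recomputed as the 2-sided probability of the cKO reads given the WT reads (Audic and Claverie), at a depth ratio of 0.991. A pair was accepted when it met the deposited p-value within a relative 1e-05 and no other pair came within 3 times that. This gave a pair for 81.3% of the 10728 genes at 1 FPKM or more and for 6 of the 8 genes described. Hif1a, Arnt and Zfp281 have estimated reads. The recovery and the tests were tested on simulated data. Because the deposited p-values match a test on 2 sets of reads, they allow no variation between libraries.

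Calls used the deposited FDR below 0.05 at 1 FPKM or more. The assumed-CV tests used a beta-binomial model with Benjamini-Hochberg adjustment over all genes (Python 3.11.15, scipy 1.17.1). The genes and lists were chosen with earlier results of these data known. Named genes were the 8 genes, Zfp281, Hif3a, Arnt2 and up to 4 called genes of each list with the largest log2 ratio in size at 5 FPKM or more; cell type markers, neighbours of Epas1 and genes stated as such were named after their values were seen. The count model in the design could not be run on 1 value per genotype. Gene positions came from RefSeq for GRCm38.p6, the assembly to which mm10 corresponds.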

Additional observations from a re-analysis of the deposited data

How the results depend on the processing

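No paired analysis was possible because the table holds 1 value per genotype, and for the same reason no replicate could be left out. The log2 ratios of the 8 genes stayed within their counting intervals with a pseudocount of 1 or 0.1, with the median change set to 0 and with upper quartiles set equal; Epas1 ranged from 1.32 to 1.43. Counts below are higher, then lower, in the order 8 genes, relatives and cofactors, VHL ligase and turnover, other hydroxylases, synthesis and iron, glycolysis targets, other targets. By the main rule they were 2 and 0, 4 and 5, 6 and 3, 1 and 3, 5 and 2, 4 and 11, 9 and 5. With at least 1.5-fold required they were 1 and 0, 0 and 2, 0 and 0, 0 and 1, 0 and 0, 0 and 2, 3 and 2. By the authors' own mark they were 1 and 0, 0 and 1, 0 and 0, 0 and 0, 0 and 0, 0 and 2, 1 and 1. At an assumed CV of 10% they were 1 and 0, 0 and 2, 0 and 0, 0 and 0, 0 and 0, 0 and 2, 1 and 1. At an assumed CV of 20% all were 0 except 1 glycolysis target that was lower. At 5 FPKM or more 0 other hydroxylases were higher and 2 lower, and 3 other targets were lower. With the median change set to 0, 1 of the 8 genes and 3 genes of the VHL ligase and turnover were higher. Without a filter every count stayed within 1.5 times its main value. The change of most counts under the stricter rules follows from their construction. With 1 value per genotype the depth sets the counting intervals only, and the unknown spread between libraries limits every call.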

Other observations

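For Hif1a and Arnt no pair of whole reads was accepted. Either none fitted both the FPKM values and the p-value in the authors' deposited table, or another pair fitted nearly as well. From the FPKM values, Hif1a had an estimated 7399 reads in cKO and 7438 in WT, which would give a p-value of 0.823, whereas the deposited p-value is 0.741. Arnt had an estimated 1468 reads in cKO and 1404 in WT, which would give 0.152, whereas the deposited p-value is 0.122. No pair was recovered for 18.7% of the genes at 1 FPKM or more, and the cause was not tested. For Epas1 the recovered pair, 1914 reads in cKO and 718 in WT, gave 6.24e-127, equal to the deposited p-value at this precision.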
